A study of Mus musculus with 12 samples.

Results

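The nuclear receptors described here are 44 genes chosen by name, and the probe sets that name 1 of them alone are their members on the array. Of the 44 genes, 42 were measured, by 112 of the 44238 probe sets tested; Nr1h2 and Nr2e3 were not analysed here. A gene had 1 to 9 probe sets, with a median of 2 against 1 over all 17996 named genes. The cells were somatic support cells, the lineage that forms Sertoli cells in a testis and granulosa cells in an ovary, sorted by flow cytometry from mouse gonads. All 4 groups came from FVB.Cg mice that carry the transgene Tg(Tyr)3412ARpw together with Tg(Sry-EGFP)92EI, an EGFP reporter of the testis-determining gene Sry. The groups were XX cells and XY cells at embryonic day 11.5 (E11.5) and XX cells and XY cells at E12.5, all untreated as far as the labels say, with 3 pools of sorted cells in each and 1 Affymetrix whole-genome expression array per pool. Whether each pool drew on its own litters is not in the labels, and the p-values therefore describe variation among these pools, which may be technical. A signal is given in log2 units, and fewer cells of a kind cannot be told apart from less RNA per cell.

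Nuclear receptors are transcription factors that bind DNA through a pair of zinc fingers and, in most members, bind a small lipophilic ligand such as a steroid, a retinoid, thyroid hormone or a fatty acid. A bound ligand exchanges corepressor proteins for coactivators, whereas orphan receptors such as the NR4A and COUP groups act with no known natural hormone. In the developing gonad, Nr5a1 and Nr0b1 are textbook regulators of the supporting lineage, and retinoic acid and steroid signals act on germ cells and on later somatic differentiation.

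At E11.5, 2 of 10 Sertoli markers were called higher in XY than in XX, and 0 of 8 pregranulosa markers were called. At E12.5 the sorted cells carried the markers of their labels: all 10 Sertoli markers were higher and all 8 pregranulosa markers lower in XY than in XX. Of the markers of other cells, 0 of 9 germ cell, 0 of 12 endothelial, 0 of 10 macrophage and 0 of 5 steroidogenic genes were called, against 2 of 7 mesenchyme and 1 of 6 erythroid genes higher and 1 of 8 mesonephric genes lower in XY. By day 1 steroidogenic, 1 macrophage, 1 mesenchyme and 1 mesonephric gene rose in XY and 2 steroidogenic and 1 mesonephric gene fell, while in XX 1 mesonephric gene rose and 1 steroidogenic and 1 mesenchyme gene fell. The part of these cells in the receptor changes was not tested. Pool 2 of XX E11.5 stood apart: its endothelial markers averaged 1.61 log2 units more than over the 12 arrays (11 of 12 genes were highest in that pool), its mesenchyme markers 1.39 more (4 of 7) and its macrophage markers 1.08 more (5 of 10). Pool 3 of XX E11.5 and pools 1 and 3 of XY E11.5 also lay together: at 243 probe sets, none of a nuclear receptor, all 3 exceeded the other E11.5 pools by more than 1 log2 unit, against 4 probe sets the other way. Of 9 Y-linked probe sets, the 5 whose signal told XX from XY read 3.33 to 5.17 in XX, which is their signal without a target. A fold whose lower mean falls in or under that range is given as "at least".

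Of the 42 genes, 14 were called in 1 or more of 5 comparisons, at a limma adjusted p under 0.05 over all probe sets. XY and XX differed at E12.5 at 11 genes (26.2%), 5 higher in XY and 6 lower. Of all named genes 13.9% were called there, 7.1% as higher and 6.87% as lower. By probe set, of which these genes have more than most, the share was 13 of 112 (11.6%) against 7.72%. At the brightest probe set of each gene the median size of the difference was 0.40 for the receptors and 0.24 for all genes. It was 0.17 against 0.16 at E11.5, 0.27 against 0.26 by day in XX and 0.28 against 0.21 by day in XY. From E11.5 to E12.5, 4 genes changed in XX (3 rose, 1 fell; 9.52%) and 6 in XY (4 rose, 2 fell; 14.3%). Of all named genes 5.88% were called in XX, 3.37% higher and 2.52% lower, and 10.7% in XY, 6.08% higher and 4.67% lower. By probe set the shares by day lay near the background, at 3.57% against 3.11% in XX and 8.04% against 6.16% in XY. XY and XX at E11.5 gave 0 calls (background 0.0834% of named genes and 0.0678% of probe sets; smallest limma adjusted p = 0.41), with 8 genes at an unadjusted p under 0.05. The interaction, which asks whether the day change differed between the sexes, also gave 0 (background 3.55% of named genes and 1.75% of probe sets), with 14 genes at an unadjusted p under 0.05 and smallest adjusted p of 0.068 for Thra, 0.074 for Ppara and 0.097 for Ppard. The count of 11 at E12.5 was 5, 6 and 3 without pools 1, 2 and 3 of XX E12.5 and 6, 7 and 4 without pools 1, 2 and 3 of XY E12.5. The count of 4 in XX was 7 without XX E11.5 pool 1 and 0 without pool 2 or 3 of either XX group; the count of 6 in XY was 3 without XY E11.5 pool 3. The sex comparison at E12.5 and both day comparisons share arrays, so their values for a gene are not independent.

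**Figure D1:**
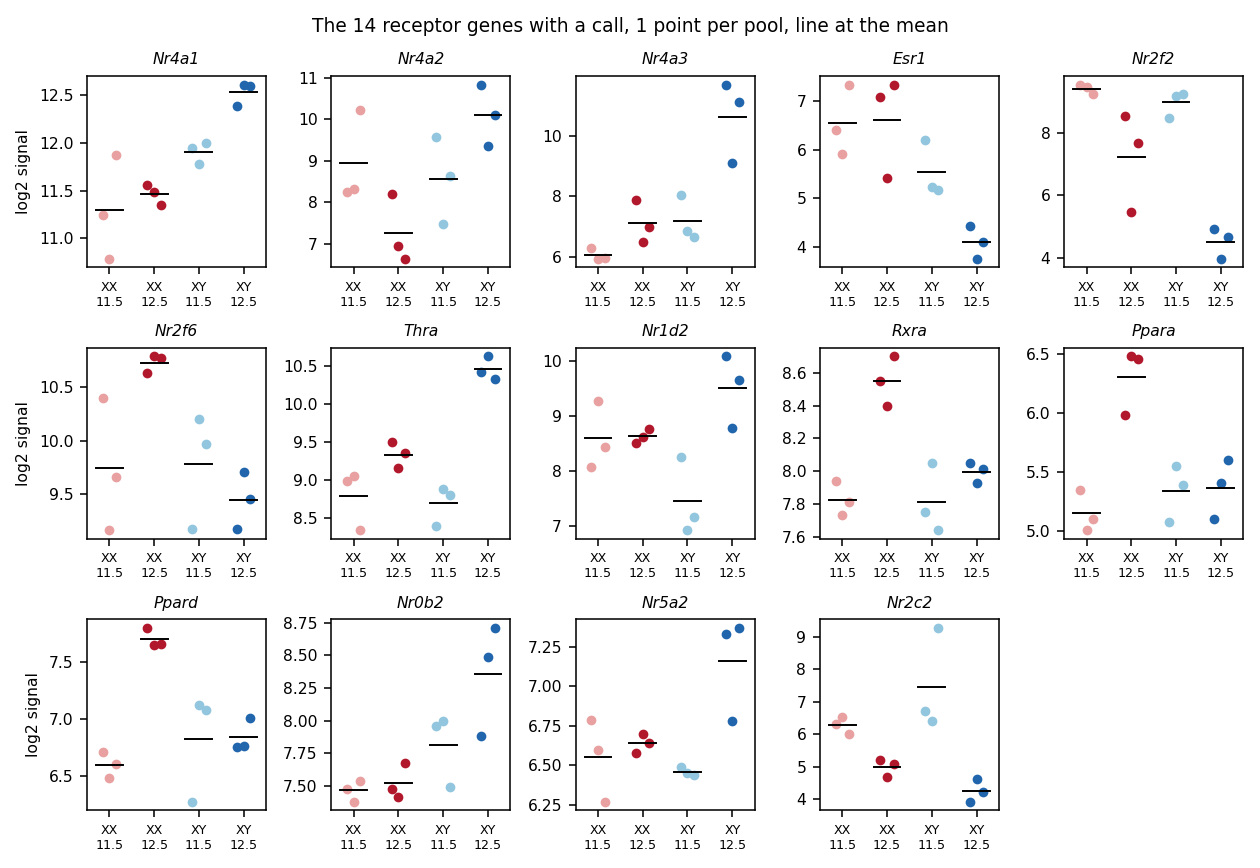
Log2 signal of the 14 called genes at the called probe set of smallest p, with 1 point per pool (3 per group) and a line at the group mean. The axes differ between panels; Nr4a3 in XY E12.5 lies at 9.09 to 11.68, above all other pools, and Thra there at 10.33 to 10.63.

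The NR4A receptors are immediate early transcription factors whose transcripts rise fast after many stimuli, cAMP signalling among them, and all 3 were higher in XY at E12.5. Their promoters are shown because each of the 3 had a sex call at E12.5 and cAMP-responsive factors are known to bind the letters TGACG. By day the 3 did not share a course. In XX the differences were 0.17 (Nr4a1), -1.67 (Nr4a2 at 1455034_at) and 1.05 (Nr4a3 at 1438796_at), none called, and in XY only Nr4a3 was called. The sequences are the 250 bases before the RefSeq start in GRCm38.p6, 5′ to 3′ on the gene's strand, with capitals at each TGACG or its reverse complement CGTCA: chr15:101266596-101266845 (plus strand) for Nr4a1, chr2:57124004-57124253 (minus strand) for Nr4a2 and chr4:48045055-48045304 (plus strand) for Nr4a3.
Nr4a1: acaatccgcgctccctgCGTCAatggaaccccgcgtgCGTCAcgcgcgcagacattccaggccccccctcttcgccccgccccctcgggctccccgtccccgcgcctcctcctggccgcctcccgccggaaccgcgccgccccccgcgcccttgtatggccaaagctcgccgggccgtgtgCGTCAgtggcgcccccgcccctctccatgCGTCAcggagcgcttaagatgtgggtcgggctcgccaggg
Nr4a2: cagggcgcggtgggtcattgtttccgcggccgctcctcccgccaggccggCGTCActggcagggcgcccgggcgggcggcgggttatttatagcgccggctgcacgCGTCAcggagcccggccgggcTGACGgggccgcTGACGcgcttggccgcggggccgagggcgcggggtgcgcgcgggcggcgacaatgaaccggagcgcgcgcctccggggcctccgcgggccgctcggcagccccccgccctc
Nr4a3: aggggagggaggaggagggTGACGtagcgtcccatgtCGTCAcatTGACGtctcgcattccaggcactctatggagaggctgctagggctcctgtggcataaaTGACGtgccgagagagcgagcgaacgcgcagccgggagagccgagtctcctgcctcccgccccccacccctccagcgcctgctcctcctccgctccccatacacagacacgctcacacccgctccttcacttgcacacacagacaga
Each of the 3 held 4 matches, at 40 to 233 bases before the start in Nr4a1, 111 to 200 in Nr4a2 and 147 to 231 in Nr4a3. The motif, searched on both strands, occurred in 17.8% of the 32851 windows of this length in the table, and 3 or more matches in 0.688%. Nr2e1, a receptor without a call, held 3 matches as well. Among the 41 listed receptors with a promoter in the table, 13 genes had it (31.7% against 19.8% of all genes). The receptors had more windows per gene than all genes did, and by window the share was 21% against 17.8%. The full palindrome TGACGTCA, which contains TGACG, was in none of these 3 promoters, in that of Nr2e1 alone among the receptors and in 1.55% of windows. The receptors' own site AGGTCA was in 9 of the 41 genes (22% against 15.8% of all genes; by window 16.1% against 14%) and in no NR4A promoter. A match of letters is a description of the sequence and not a measured binding site.

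Nr4a3 (chromosome 4), showed the largest difference of the group. Its signal at 1438796_at was 6.29, 5.94 and 5.95 in the XX pools and 8.05, 6.86 and 6.65 in the XY pools at E11.5. At E12.5 it was 7.86, 6.49 and 6.98 in XX and 11.68, 9.09 and 11.1 in XY, so every XY E12.5 pool exceeded all others. The XY signal at E12.5 was 11.4-fold that of XX (95% interval 4.34 to 29.9; log2 difference 3.51 ± 0.63, SE; limma adjusted p = 0.0072), and this call held without any 1 array (log2 difference 4.28 without XY E12.5 pool 2). In XY it rose 10.8-fold from E11.5 (4.12 to 28.4; adjusted p = 0.011), a call that ended without XY E11.5 pool 3 or when the fit held only the compared arrays, and whose log2 difference was 4.2 without XY E12.5 pool 2. The other probe sets of Nr4a3 differed by 0 (1421080_at) and 0.03 (1421079_at) at E12.5, the latter within 4.22 to 4.74 on all arrays.

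Nr4a2 (chromosome 2) overlapped between the sexes at E11.5, with 8.26, 8.33 and 10.22 in XX and 9.58, 7.49 and 8.63 in XY at 1455034_at. At E12.5 it read 8.2, 6.95 and 6.65 in XX and 10.83, 9.35 and 10.11 in XY, with no overlap. The XY signal was 7.11-fold higher (2.45 to 20.6; adjusted p = 0.033). The other 5 probe sets were not called, and their differences ran from -0.47 to 1.04. Nr4a1 (chromosome 15) was bright throughout, at 11.25, 10.79 and 11.87 in XX and 11.95, 11.78 and 12 in XY at E11.5. Its E12.5 pools read 11.56, 11.49 and 11.35 in XX and 12.39, 12.61 and 12.6 in XY, which is 2.09-fold higher in XY (1.48 to 2.95; adjusted p = 0.017). The pools of each E12.5 group lay close together (SD 0.10 and 0.12, n = 3). At E11.5 the 3 pools that stood together on other probe sets (XX pool 3, XY pools 1 and 3) also read above the rest at Nr4a1 and Nr4a2, by 0.08 and 0.29. Over all receptors this held for 7 of 112 probe sets (6.25% against 5.86% of all probe sets), and 5 read below the rest. The Nr4a1 call ended without pool 2 or 3 of either E12.5 group, and that of Nr4a2 without XX E12.5 pools 2 and 3 and XY E12.5 pools 1 and 3.

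Some other immediate early genes were also higher in XY at E12.5. Of 14 such genes, 5 were called higher and 0 lower (7.1% and 6.87% of all named genes). The list was added after the NR4A values were seen, and its median difference was 0.89 at brightest probe sets. At their called probe sets the 5 were Fosl2 (5.74-fold), Egr2 (4.77), Jun (3.02), Egr1 (2.82) and Junb (1.92). The brightest probe sets of Egr2 and Jun were others, which differed by 1.87 and 1.19 without a call. Fos, the classic member, differed by 0.19, Fosb by 0.29, Jund by -0.43 and Egr3 by -0.38 at their brightest probe sets, and these were not called. By day 0 of 14 were called in XX, against 5.88% of all named genes. In XY 3 rose (6.08% of all named genes), Egr1 by 3.58-fold, Egr2 by 3.34-fold and Junb by 2.91-fold. The interaction had 0 calls in this list, against 3.55% of all named genes. The part of these differences in the NR4A result was not tested. At E12.5 the call of Fosl2 held without any 1 array; those of Egr1, Egr2, Jun and Junb ended without XX E12.5 pool 3. Those of Egr1, Jun and Junb also ended without XX E12.5 pool 2, Egr1 without XY E12.5 pool 1, Jun and Junb without XY E12.5 pool 3, and Junb without XY E12.5 pool 2. The Egr2 rise by day ended without any of 9 arrays, all 3 XY pools of both days among them.

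**Figure D2:**
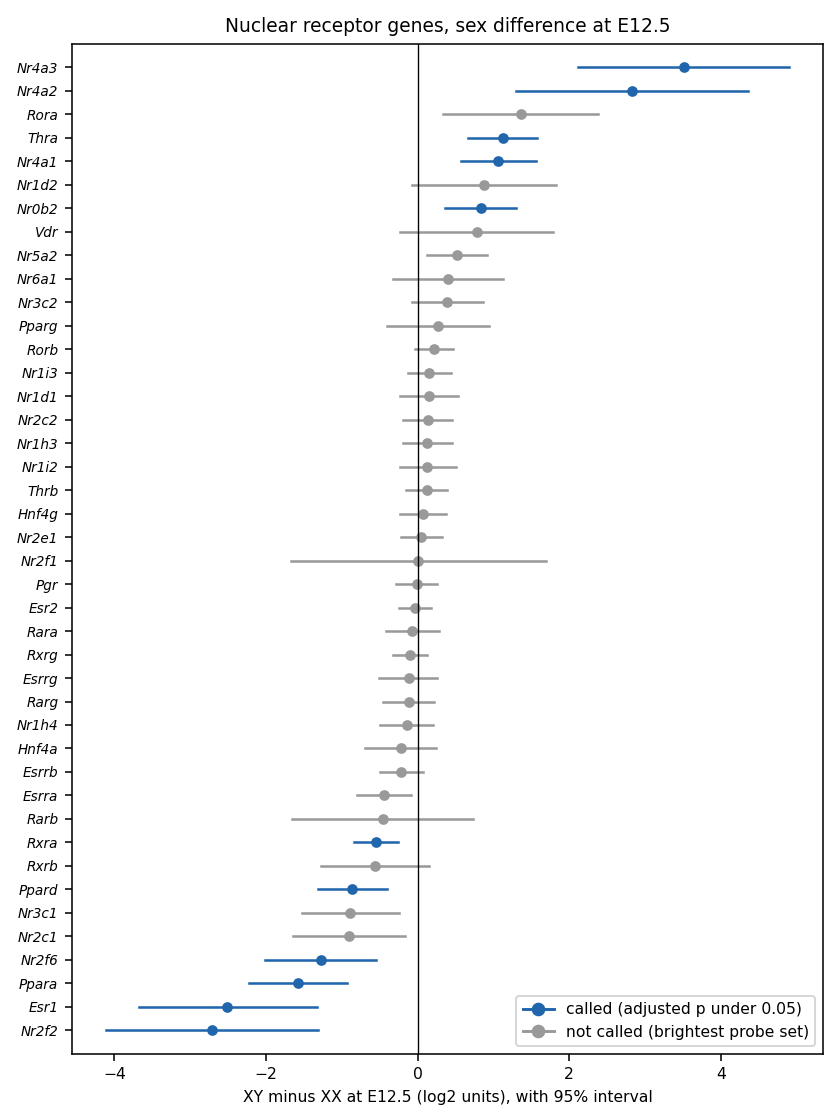
XY minus XX at E12.5 in log2 units for 42 receptor genes, with 95% intervals from limma. Each called gene (blue) is shown at its called probe set of smallest p, and each other gene (grey) at its brightest; the called genes span -2.71 for Nr2f2 to 3.51 for Nr4a3.

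Among the steroid receptors, Esr1 (chromosome 10), which encodes estrogen receptor alpha, was lower in XY at E12.5. At 1460591_at the E11.5 pools overlapped, with 10.53, 9.06 and 10.08 in XX and 9.85, 10.33 and 9.61 in XY. At E12.5 the XX pools read 11.34, 10.68 and 11.12 and the XY pools 8.69, 5.33 and 8.45. All XY pools lay below all XX pools, and XY pool 2 lay far under the other XY pools. The signal was 11.8-fold lower in XY (3.66 to 38.2; log2 difference -3.56 ± 0.76; adjusted p = 0.018). Without XY E12.5 pool 2 the log2 difference was -2.48 and still called, and without XY E12.5 pool 1 it was -4.16. A dimmer probe set, 1435663_at, read 7.08, 5.41 and 7.34 in XX and 4.43, 3.76 and 4.11 in XY, so XY was lower by at least 5.69-fold (adjusted p = 0.017). The remaining probe set stayed within 4.67 to 5.13 on all arrays. At 1435663_at the difference was -3.11 without XX E12.5 pool 2. The 1460591_at call ended without XX E12.5 pool 1 or 3 or with the compared arrays alone; the other ended without XX E12.5 pool 1 or 3 and also without XY E12.5 pool 2 or 3. By day Esr1 was not called: 1460591_at differed by 1.16 ± 0.76 in XX and by -2.44 ± 0.76 in XY (adjusted p = 0.40 and 0.094), with an interaction of -3.60 ± 1.07 (adjusted p = 0.14).

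The other steroid receptors were not called in any comparison. Nr3c1, the glucocorticoid receptor gene, had the smallest adjusted p of all uncalled receptors at E12.5 (0.10) and differed there by -0.89 at its brightest probe set, which read 6.3 to 7.95. Its next brightest probe set, 1460303_at, differed the other way, by 0.5 ± 0.55. Nr3c2, which encodes the mineralocorticoid receptor, differed by 0.77 between the days in XY (adjusted p = 0.060). Esr2, the gene of estrogen receptor beta, read 5.92 to 6.13 on all arrays, and Pgr, the progesterone receptor gene, 5.21 to 5.55 at its brightest probe set. Of 12 listed steroid receptor targets, 4 were higher and 2 lower in XY at E12.5 (7.1% and 6.87% of all named genes). Their median difference was 0.71 at brightest probe sets, and Per1, 1 of the 4, is also on the list of clock genes. Greb1, a gene induced by estrogen in many tissues, was 5.2-fold lower in XY at 1 of 4 probe sets (3.22 to 8.4; adjusted p = 0.0013). Its XX pools read 11.9, 12.26 and 12.08 and its XY pools 9.42, 10.45 and 9.24. Tsc22d3, a glucocorticoid-induced leucine zipper gene, was 1.53-fold lower at the probe set of smallest p, a call that ended without XY E12.5 pool 3. Nkd2, a WNT antagonist gene, was 6.55-fold higher and Cited1, a transcriptional coregulator gene, 3.23-fold higher. Greb1 fell 2.68-fold in XY by day, where Nkd2 rose 3.61-fold and Cited1 3.04-fold, and its interaction was called (-2.09 ± 0.44; adjusted p = 0.046). The Greb1 day call ended without XY E11.5 pool 2 or 3 or XY E12.5 pool 1 or 3, and its interaction without 9 of the 12 arrays, the exceptions being pool 1 of XX E11.5, pool 1 of XY E11.5 and pool 2 of XY E12.5. By day 2 of the 12 listed targets rose and 1 fell in XY (6.08% and 4.67% of all named genes). In XX 0 of the 12 were called, against 5.88% of all named genes.

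**Figure D3:**
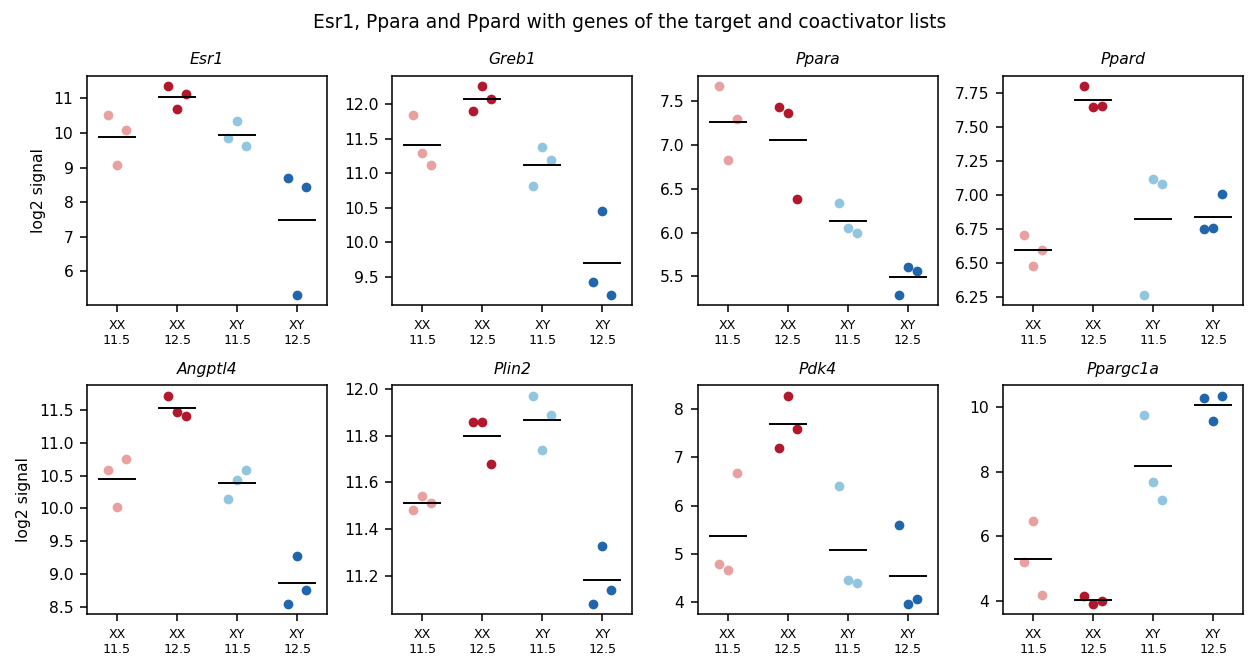
Log2 signal of Esr1, Ppara (1449051_at) and Ppard beside 4 listed target genes and the coactivator gene Ppargc1a, with 1 point per pool and a line at the group mean of 3. In XY E12.5 Greb1 (9.24 to 10.45) and Angptl4 (8.54 to 9.28) lie below all XX E12.5 pools, and Ppargc1a (9.57 to 10.35) lies above them.

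The COUP receptors are orphan receptors best known from mesenchyme, vessels and neurons. Nr2f2 (chromosome 7), which encodes COUP-TFII, fell between the days at 1416159_at in both sexes and at 1444229_at in XY. At 1444229_at it read 9.54, 9.47 and 9.23 in XX and 8.49, 9.17 and 9.26 in XY at E11.5. At E12.5 it read 8.53, 5.48 and 7.69 in XX and 4.91, 3.98 and 4.68 in XY. The XY pools fell by at least 21.9-fold (adjusted p = 0.0032) and at E12.5 lay at least 6.56-fold under XX (adjusted p = 0.026), while the change in XX was not called there (-2.18 ± 0.63; adjusted p = 0.084). At 1416159_at the E11.5 pools were 9.53, 10.15 and 10.78 in XX and 9.42, 8.77 and 10 in XY, and the E12.5 pools 9.06, 8.23 and 8.09 in XX and 7.07, 7.33 and 7.19 in XY. The fall was 3.23-fold in XX (1.79 to 5.81; adjusted p = 0.045) and 4.61-fold in XY (2.56 to 8.29; adjusted p = 0.009). The remaining 4 probe sets gave no call, with day differences of -0.76 to 0.09 in XY. Both XY falls held without any 1 array. The sex call at 1444229_at ended without XX E12.5 pool 1 or 3 or any XY E12.5 pool or with the compared arrays alone; its log2 difference was -2.07 without XX E12.5 pool 1 and -3.59 without pool 2. The XX fall ended without any of 8 arrays, XX E11.5 pools 2 and 3 among them, with the pool number as a block and with the compared arrays alone. The interaction was -2.27 ± 0.88 and -0.51 ± 0.54 at the 2 probe sets and was not called.

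The mean of the mesenchyme markers lay at -0.34 to 0.01 log2 units around the 12-array mean in XY E11.5 pools and at 0.09 to 0.67 in XY E12.5 pools, with 1 of 7 genes higher and 0 lower by day. In XX it lay at -0.45 to 1.39 at E11.5 and -0.80 to -0.09 at E12.5, where 1 of 7 fell; the part of these cells in the Nr2f2 falls was not tested in either sex.

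Nr2f1 (chromosome 13), the COUP-TFI gene, had 1 probe set and was not called. It read 7.63, 10.33 and 7.33 in XX and 6.37, 6.94 and 6.91 in XY at E11.5, and 6.12, 6.47 and 7.02 in XX and 7.61, 6.64 and 5.39 in XY at E12.5. XX E11.5 pool 2, the pool with high endothelial and mesenchyme markers, was the highest; the part of those cells was not tested. Without it the sex difference at E11.5 went from -1.69 to -0.74 and the day difference in XX from -1.89 to -0.94. Nr2f6 (chromosome 8), the EAR2 gene, overlapped at E11.5, with 10.4, 9.16 and 9.66 in XX and 9.17, 10.2 and 9.97 in XY. At E12.5 it read 10.63, 10.79 and 10.77 in XX and 9.17, 9.71 and 9.45 in XY, 2.43-fold lower in XY (1.47 to 4.04; adjusted p = 0.041). Its other probe set differed by -0.79 ± 0.28 (adjusted p = 0.14). The Nr2f6 call ended without any 1 of the 6 E12.5 arrays, XX E11.5 pool 3 or XY E11.5 pool 3, and with the pool number as a block. Nr2e1, the tailless gene, did not exceed 4.96 at either probe set.

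**Figure D4:**
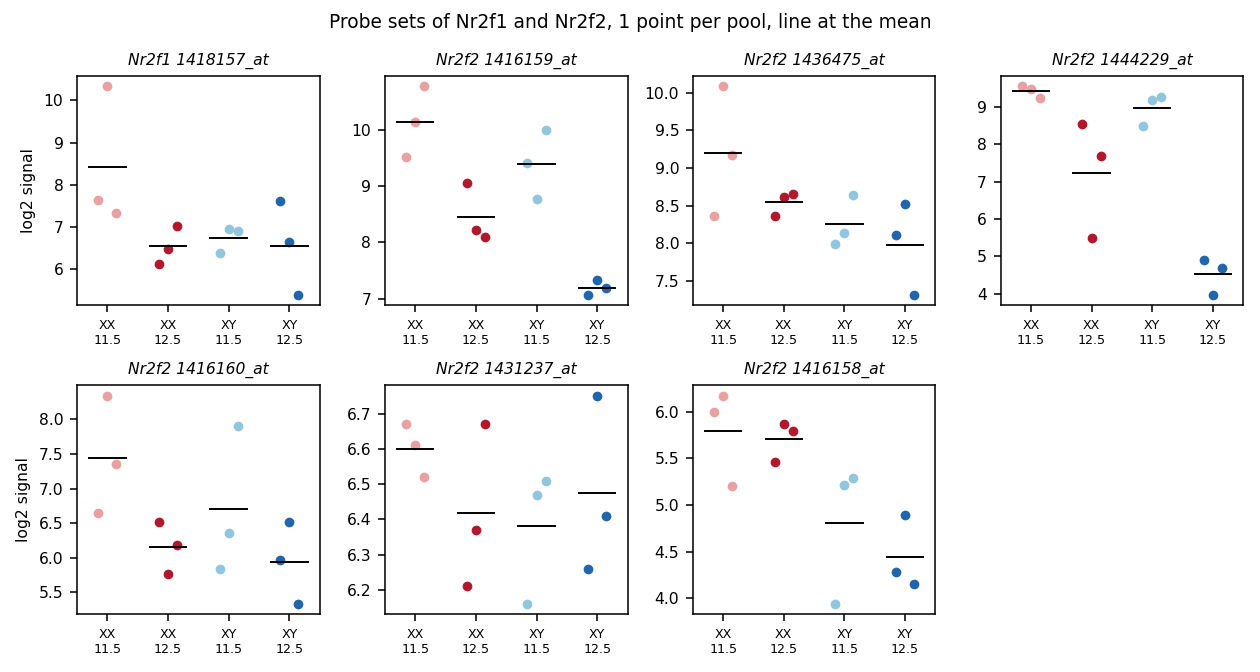
Log2 signal at the probe set of Nr2f1 and the 6 probe sets of Nr2f2, with 1 point per pool and a line at the group mean of 3; axes differ between panels. At 1444229_at the XY E12.5 pools lie at 3.98 to 4.91, and Nr2f1 peaks at 10.33 in a single XX E11.5 pool.

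Thra (chromosome 11), which encodes thyroid hormone receptor alpha, was the receptor gene called at the most probe sets in a single comparison. At 1454675_at its E11.5 pools overlapped, with 8.99, 9.05 and 8.34 in XX and 8.4, 8.88 and 8.8 in XY. At E12.5 it read 9.5, 9.16 and 9.35 in XX and 10.43, 10.63 and 10.33 in XY. The XY signal was 2.19-fold higher than XX at E12.5 (1.6 to 3; adjusted p = 0.0078) and had risen 3.42-fold from E11.5 (2.49 to 4.68; adjusted p = 0.00098). In XX the day difference was 0.54 ± 0.20 (adjusted p = 0.16). In XY it also rose 3.1-fold at 1443952_at (adjusted p = 0.0035) and 1.53-fold at 1426997_at (adjusted p = 0.042), so that all 3 probe sets moved the same way. At E12.5 the sex difference at these was 0.68 and 0.08 and was not called. The calls at 1454675_at and 1443952_at held without any 1 array, whereas that at 1426997_at ended without any of 10 arrays, the exceptions being XX E12.5 pools 2 and 3, and under the mean-dependent variance prior, quality weights, the block and the compared arrays alone. Thra and Nr1d1, which encodes the clock repressor REV-ERB alpha, overlap by 1075 bases on opposite strands in RefSeq. Nr1d1 itself read 5.02 to 6.27 and was not called. Thrb, the beta receptor gene, read 5.56 to 5.93. Vdr, the vitamin D receptor gene, read 6.02 to 9.39 and differed by day by 1.29 in XX and 1.49 in XY, without a call.

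Rxra, Ppara and Ppard each had a called probe set at which all 3 XX E12.5 pools read above every other pool. The same held for Nr2f6 at 1460647_a_at (day difference in XX 0.99 ± 0.33) and Esr1 at 1460591_at, neither called by day. Retinoid X receptors are the common dimer partners of many other receptors, and PPARs are fatty acid sensors of lipid metabolism. Rxra (chromosome 2) at 1425762_a_at read 7.94, 7.73 and 7.81 in XX and 7.75, 8.05 and 7.64 in XY at E11.5, and 8.55, 8.4 and 8.7 in XX and 8.05, 7.93 and 8.01 in XY at E12.5. It rose 1.65-fold in XX (1.35 to 2.01; adjusted p = 0.022) and was then 1.47-fold lower in XY than in XX (1.2 to 1.79; adjusted p = 0.028). The brightest Rxra probe set differed by 0.86 and -0.89 in the same comparisons and was not called. The sex call of Rxra ended without XX E12.5 pool 1 or 3 or any XY E12.5 pool, and under quantile normalization, the mean-dependent variance prior and the block.

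Ppard (chromosome 17), the PPAR delta gene, read 6.71, 6.48 and 6.6 in XX and 6.27, 7.12 and 7.08 in XY at E11.5. At E12.5 it read 7.8, 7.65 and 7.66 in XX and 6.75, 6.76 and 7.01 in XY at 1439797_at. The rise in XX was 2.15-fold (1.57 to 2.95; adjusted p = 0.024), and XY was 1.82-fold lower at E12.5 (1.33 to 2.49; adjusted p = 0.028). The sex call of Ppard ended without any 1 of the 6 E12.5 arrays. Ppara (chromosome 15), the PPAR alpha gene, was called at a pair of probe sets that differed in their course. At 1457721_at it read 5.35, 5.01 and 5.1 in XX and 5.08, 5.55 and 5.39 in XY at E11.5, then 5.98, 6.48 and 6.46 in XX and 5.1, 5.41 and 5.6 in XY. It rose by at least 2.23-fold in XX (adjusted p = 0.017) and was 1.91-fold lower in XY at E12.5 (adjusted p = 0.015). At 1449051_at the XX signal was already 7.67, 6.83 and 7.3 at E11.5 against 6.34, 6.05 and 6 in XY, a difference that was not called (-1.14 ± 0.29; adjusted p = 0.41). At E12.5 the pools read 7.44, 7.37 and 6.38 in XX and 5.29, 5.61 and 5.56 in XY, 2.98-fold lower in XY (1.91 to 4.66; adjusted p = 0.0085), and this call held without any 1 array. The sex call at 1457721_at ended without XX E12.5 pool 2 or 3 or XY E12.5 pool 1. The 3 rises in XX, of Rxra, Ppard and Ppara, each ended without pool 2 or 3 of either XX group, and those of Rxra and Ppara also with the compared arrays alone. Pparg, the adipocyte receptor gene, read 5.86 to 7.44 and was not called.

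Of 11 measured genes listed as targets of PPARs and estrogen-related receptors, 3 were lower and 0 higher in XY at E12.5. Of all named genes 6.87% were lower and 7.1% higher, and the median difference of the list was -0.4 at brightest probe sets. Angptl4, a secreted inhibitor of lipoprotein lipase, was 6.4-fold lower (4.46 to 9.19; adjusted p = 0.00011), with 11.72, 11.47 and 11.42 in XX and 8.54, 9.28 and 8.76 in XY. Plin2, a lipid droplet coat gene, was 1.54-fold lower (adjusted p = 0.0065), and Pdk4, a kinase that restrains pyruvate oxidation, at least 8.86-fold lower (adjusted p = 0.023). The day change of Angptl4 differed between the sexes (interaction -2.61 ± 0.33; adjusted p = 0.0039), with a rise of 2.12-fold in XX and a fall of 2.88-fold in XY. That of Plin2 differed too (-0.97 ± 0.15; adjusted p = 0.012), with a fall of 1.61-fold in XY, while Fabp3, a fatty acid binding protein gene, rose 4.75-fold in XY. The Pdk4 call ended without pool 2 or 3 of either E12.5 group, the Angptl4 rise in XX without any of 8 arrays, all XX pools among them, and the Fabp3 rise without XY E11.5 pool 1 or 3. Target genes of the liver X receptors gave 1 lower and 0 higher of 10 at E12.5, against the same background, with a median difference of -0.09. The lower gene was Mylip, an LDL receptor ligase gene (2.83-fold). The cholesterol exporters Abca1 and Abcg1 rose in XY by 3.29-fold and 2.96-fold and Abcg1 also in XX by 2.64-fold. The Abcg1 rise ended without XY E11.5 pool 1 or 3 or XY E12.5 pool 2 or 3 in XY, and without any of 8 arrays in XX. Nr1h3, the LXR alpha gene itself, read 5.65 to 6.19.

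The retinoic acid receptors were not called. Rarg read 8.16 to 8.83 at its brightest probe set and Rxrb 9.09 to 10.4. Rara read 6.1 to 6.86, Rxrg 5.77 to 6.14 and Rarb 5.95 to 8.32, with a Rarb day difference of -1.15 in XY that was not called. Of 8 measured genes that respond to or clear retinoic acid, 1 was higher and 1 lower in XY at E12.5. Of all named genes 7.1% were higher and 6.87% lower, and the median difference of the list was -0.19 at brightest probe sets. Cyp26b1, the enzyme that degrades retinoic acid in the fetal testis, was 4.34-fold higher in XY (2.72 to 6.92; adjusted p = 0.0021), with 9.03, 8.18 and 7.92 in XX and 10.49, 10.51 and 10.48 in XY. It fell 3.23-fold by day in XX, a call that ended without XX E11.5 pool 3 or XX E12.5 pool 2 or 3. Dhrs3, a retinaldehyde reductase gene, was 5.88-fold lower in XY (4.3 to 8.05; adjusted p = 6.4e-05) and fell 4.15-fold there by day, and its interaction was called (-2.26 ± 0.29; adjusted p = 0.004).

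Nr1d2 (chromosome 14), which encodes the clock repressor REV-ERB beta, rose in XY. At 1416958_at it read 8.08, 9.27 and 8.43 in XX and 8.26, 6.93 and 7.16 in XY at E11.5, and 8.51, 8.62 and 8.76 in XX and 10.08, 8.78 and 9.66 in XY at E12.5. The rise in XY was 4.16-fold (2.15 to 8.03; adjusted p = 0.02), against a difference of 0.04 ± 0.43 in XX. Its call ended without XY E11.5 pool 2 or 3 or XY E12.5 pool 1 or 3, and with the compared arrays alone. The sex difference at E12.5 was 0.88 ± 0.43 and was not called. Rora, an activator of clock genes, differed by 1.36 at its brightest of 9 probe sets at E12.5, the largest value of an uncalled receptor there. Of 15 clock genes, 5 were higher and 0 lower in XY at E12.5 (7.1% and 6.87% of all named genes). The median difference of the list was 0.06 at brightest probe sets. Per1, 1 of the 5, was also counted among the steroid receptor targets. Nfil3 (2.51-fold), a repressor of D-box genes, and Tef (2.36-fold), their activator, had the smallest p of this group, followed by Cry2 (1.83-fold) and Bhlhe40 (2.53-fold). By day 4 rose and 1 fell in XY (6.08% and 4.67% of all named genes). The rises were those of Tef at 2.75-fold, Nfil3 at 1.99-fold, Cry2 at 1.91-fold and Per2 at 2.32-fold. In XX 1 rose (3.37% of all named genes), Bhlhe41, by 1.45-fold. The sex calls of Cry2 and Bhlhe40 ended without XX E12.5 pool 1 or 3, and that of Bhlhe40 also without XY E12.5 pool 1 or 3. The Cry2 rise ended without XY E11.5 pool 3, the Per2 rise without any of 6 arrays, all XY E11.5 pools among them, and the Bhlhe41 rise without any of 7, all XX E12.5 pools among them.

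Nr0b2 (chromosome 4), which encodes SHP, a receptor that lacks a DNA-binding domain and represses others, was higher in XY at E12.5. It read 7.48, 7.38 and 7.54 in XX and 7.96, 8 and 7.49 in XY at E11.5, and 7.48, 7.42 and 7.68 in XX and 7.88, 8.49 and 8.71 in XY at E12.5. The difference was 1.78-fold (1.29 to 2.47; adjusted p = 0.039), a call that ended without any of 7 arrays: XX E11.5 pools 1 and 3, the XX E12.5 pools and XY E12.5 pools 2 and 3. It also ended under the mean-dependent variance prior, the block and the compared arrays alone. Nr5a2 (chromosome 1), the LRH-1 gene, rose 1.62-fold in XY by day (1.24 to 2.12; adjusted p = 0.043) at 1456521_at, where the XY pools read 6.49, 6.45 and 6.44 at first and 7.33, 6.78 and 7.37 at E12.5. In XX it read 6.79, 6.6 and 6.27 and then 6.58, 6.7 and 6.64. Its other 3 probe sets differed by -0.08 to 0.29 in XY, and the call ended without any of 9 arrays, all XY E11.5 pools among them, and under the same 3 settings as that of Nr0b2. Of the related receptors outside the 44 genes, Nr0b1, the DAX1 gene, was 2.91-fold lower in XY at E12.5 (adjusted p = 0.0044), with 10.71, 11.08 and 11.15 in XX and 9.48, 9.63 and 9.2 in XY, and its interaction was called (-2.29 ± 0.35; adjusted p = 0.011). Nr5a1, the SF-1 gene, differed by 0.23 ± 0.30 at its bright probe set.

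Nr2c2 (chromosome 6), which encodes the orphan receptor TR4, was called at 1 of 6 probe sets. At 1439696_at the XY pools read 6.73, 6.4 and 9.28 at E11.5, then 3.92, 4.61 and 4.22, a fall of at least 9.31-fold (adjusted p = 0.013). In XX they read 6.31, 6.52 and 6.01 and then 5.21, 4.67 and 5.08 (-1.29 ± 0.61; adjusted p = 0.24). XY E11.5 pool 3 was the highest of all, and without it the fall was the smallest of those with 1 array left out (-2.32) and still called; the call ended with the compared arrays alone. The probe sets of this gene disagreed: the brightest, 1454851_at, differed by 0.30 ± 0.15 in XY and 1451569_at by -1.27 ± 0.34, neither called. Nr2c1, the TR2 gene, differed by -0.91 at E12.5 and Nr6a1, the germ cell nuclear factor gene, by 0.40, without a call.

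In all, 28 genes with 67 probe sets had no call, and at their brightest probe sets 23 of the 28 differed by under 0.5 between the sexes at E12.5. By day 22 did in XX and 25 in XY. Nr1i3, Nr2e1 and Hnf4g, receptors of liver, brain and gut, never exceeded 5.17 at any probe set. That is the highest XX value of the 5 Y-linked probe sets that told XX from XY. Nr1h4, the bile acid receptor gene, read 4.74 to 5.35 and Nr1i2, the pregnane X receptor gene, 4.99 to 5.82. Hnf4a, a master gene of liver and gut, read 6.53 to 7.36 at its brightest probe set. Of its listed targets, 0 of 5 were called in any comparison, against at most 13.9% of all named genes in a single comparison. Of the estrogen-related receptors, Esrra differed by -0.44 at E12.5 and had the smallest adjusted p of the uncalled genes for the day change in XX (0.068), while Esrrb and Esrrg read 6.24 to 6.71 and 4.81 to 5.48 at their brightest probe sets. Rorb read 5.39 to 5.89.

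**Figure D5:**
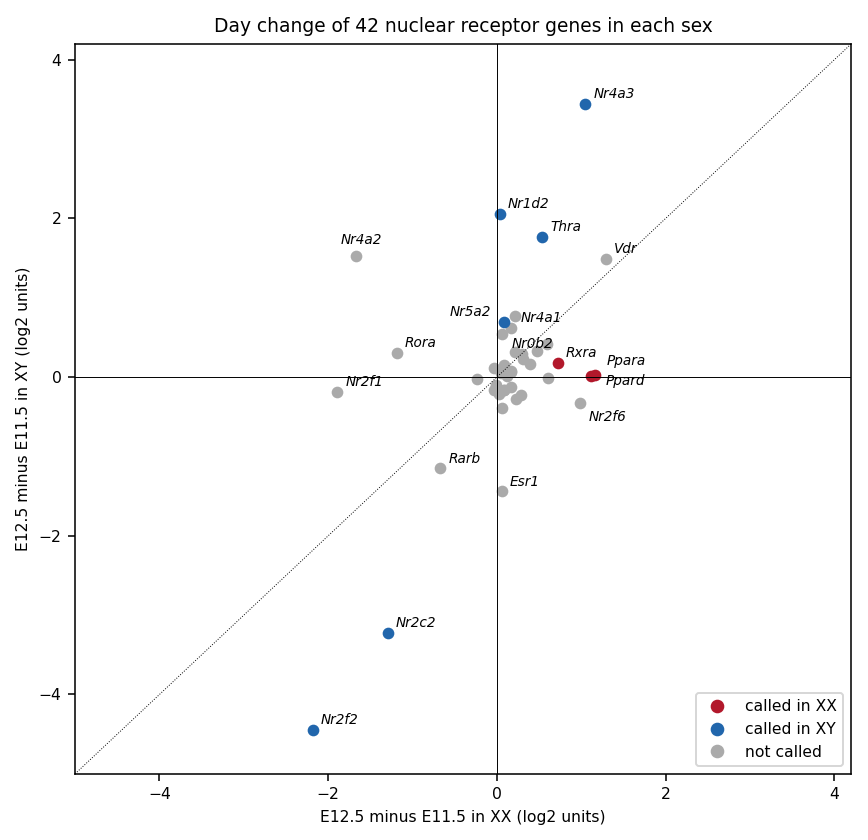
E12.5 minus E11.5 in log2 units in XX (x axis) and XY (y axis) for 42 receptor genes, at the called probe set of smallest p or else the brightest, coloured by the call at that probe set. Rxra, Ppara and Ppard lie to the right near 0 in XY, Nr4a3 (3.44), Nr1d2 (2.06) and Thra (1.77) lie high, and Nr2f2 (-4.45 at 1444229_at, with its call in XX at another probe set) and Nr2c2 (-3.22) lie low.

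Coactivators and corepressors are the proteins that receptors recruit. Of 16 coactivator genes, 2 were higher and 1 lower in XY at E12.5, where 13.9% of all named genes were called. Ppargc1a, the PGC-1 alpha gene that drives mitochondrial programmes with PPARs and estrogen-related receptors, was at least 66-fold higher at 1434099_at (adjusted p = 5e-04), with 4.16, 3.91 and 4 in XX and 10.28, 9.57 and 10.35 in XY. It was also at least 59.9-fold higher at 1434100_x_at and called at 3 of 5 probe sets, the third call ending without pool 3 of either E12.5 group. Ncoa7 was 3.56-fold higher (adjusted p = 7.9e-05), had risen 3.06-fold in XY by day and had a called interaction (1.97 ± 0.21; adjusted p = 0.002). Ncoa2 was 1.61-fold lower at 1 of 4 probe sets, a call that ended without any 1 of the 6 E12.5 arrays. By day in XY 2 coactivators rose and 5 fell (6.08% and 4.67% of all named genes). Tgs1 is in both counts, as its probe sets moved both ways (its rise ended without any of 5 arrays, XY E11.5 pool 3 among them). The largest fall was that of Crebbp (28.7-fold at 1436983_at), followed by Tgs1 (9.93-fold at 1450401_at) and Kat2b (3.56-fold). In XX Ep300 fell 5.88-fold and Tgs1 4.68-fold at 1 of 6 probe sets, and Ncoa2 rose 1.69-fold at the probe set of its sex call. The Kat2b call ended without XY E11.5 pool 3 or XY E12.5 pool 2 or 3, Ep300 without XX E12.5 pool 2, Tgs1 in XX without pool 2 or 3 of either XX group, and Ncoa2 in XX without any of 6 arrays, all XX E12.5 pools among them.

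No corepressor gene of the 10 measured had a sex call on either day, and none of the pathway lists had one at E11.5. Of all named genes 13.9% had a sex call at E12.5 and 0.0834% at E11.5. Nrip1, the RIP140 corepressor gene, fell by day 8.01-fold in XX and 9.88-fold in XY at 1449089_at (adjusted p = 0.022 and 0.0071), and in XY at 3 of its 6 probe sets, of which the other calls ended without XY E11.5 pool 1 or 3, among others. At 1449089_at the pools read 10.63, 10.85 and 10.54 in XX and 9.76, 9.18 and 8.13 in XY at E11.5, and 8.7, 6.53 and 7.79 in XX and 6.36, 5.34 and 5.46 in XY at E12.5. Nsd1 fell 3.99-fold in XY at 1 of 4 probe sets and Tbl1xr1 at least 2.29-fold in XX at 1 of 6. The Nrip1 fall in XX ended without pool 2 or 3 of either XX group, Tbl1xr1 without XX E12.5 pool 2 or 3, and Nsd1 without any of 9 arrays, all XX and XY E12.5 pools among them. Of 8 measured receptor chaperones, Hspa8 was 2.98-fold lower in XY at E12.5 at 1 of 2 probe sets (6.87% of all named genes were lower). Hsp90aa1 fell 2.56-fold in XX and 3.88-fold in XY at 1 of 5 (2.52% and 4.67% of all named genes fell). The Hspa8 call ended without any E12.5 array but XY pool 2, and the Hsp90aa1 fall in XX without any of 6 arrays, all XX E12.5 pools among them. At E11.5 XX pool 3 and XY pools 1 and 3 read above the other pools at Hsp90aa1 (11.44 to 11.58 against 10.44 to 10.95). They did so at Nsd1 (9.57 to 10.34 against 8.58 to 8.94) and at Nrip1 1454295_at (10.09 to 10.98 against 8.28 to 9.12), but not at Nrip1 1449089_at. The part of this split in the falls was not tested.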

How the data were processed

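Gene expression was measured on 12 Affymetrix whole-genome mouse arrays, 3 pools of sorted cells in each of 4 groups. Per the labels' protocols, RNA was isolated with a PicoPure kit and amplified and biotin-labelled with a TargetAmp kit; the effect of amplification on single probe sets was not tested. The authors deposited log2 values, 1 for each probe set on each array. Their log base is not stated and was taken as 2 because the largest value was 14.45. How probes were summarised, corrected and normalized is not given in the sources used here. Of 45037 probe sets, 798 were blank on all arrays and 1 on some; the other 44238 were tested. Array medians were 6.494 to 6.592, and the number of arrays limits the precision. Symbols came from the platform annotation, updated through Entrez identifiers with RefSeq GRCm38.p6 (34126 probe sets matched); 34328 probe sets held 1 symbol, 850 several and 9060 none, and only a single symbol named a gene, which leaves out 1 probe set naming Ppard with another gene.

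The tool limma 3.58.1 (R 4.3.3) fitted 4 group means over all 12 arrays (8 residual and 2.11 prior degrees of freedom), with two-sided Benjamini-Hochberg adjustment over all probe sets tested and calls under 0.05. A gene counts as called where at least 1 of its probe sets is. The fit was checked on simulated data. The named-genes rule takes every called receptor at its called probe set of smallest p, gives the others as ranges at the brightest probe set, and names up to 4 called genes of each list and comparison by smallest p. The members and lists were chosen with earlier results of these data known; the immediate early genes and further probe sets of called receptors were added after their values were seen. List medians beside the counts are at brightest probe sets. A called list gene is given at a called probe set, and many list genes had further probe sets without a call. Alternatives were median centring or quantile normalization, only brighter probe sets, a mean-dependent variance prior, weights for array quality, a block for the pool number, a fit to just the groups compared, keeping 1 probe set of each gene and leaving out each array. Promoters came from the RefSeq table, which matched 41 of the 44 receptors. Figures were drawn with matplotlib 3.10.9 in Python 3.11.15.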

Additional observations from a re-analysis of the deposited data

How the results depend on the processing

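No call of the 26 receptor calls reversed under any alternative, and 7 were kept under all of them. With the replicate block by pool number the counts of called genes were 0 and 8 for sex at E11.5 and E12.5, 4 and 6 for the day in XX and XY and 0 for the interaction, and 6 of the 26 calls ended; same-numbered pools did not deviate together (18 pairs, correlations -0.40 to 0.23, 4 over 0.1), so the numbers were not taken to pair the pools. The interaction had 1 gene (Thra) with the brighter probe sets alone and 1 (Ppara) with array quality weights, and 1 probe set per gene gave 2 genes for the day in XX. Leaving out 1 array gave 0 for sex at E11.5, 3 to 12 at E12.5, 0 to 7 for the day in XX, 3 to 7 in XY and 0 to 2 for the interaction. The fit to the compared arrays alone ended 11 of 26 calls, and array quality weights gave 16 genes at E12.5. Quantile normalization and centring moved the median of all probe sets by at most 0.025 and 0.06. Of 79 calls in the gene lists, alternatives added after the data were seen kept 33 in all settings and reversed 0. The causes of these changes were not tested. With 3 pools per group, the precision is limited most at variable probe sets, and values near the signal of probe sets without target give bounds only.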
